A study of Mus musculus with 3 samples.

Results

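Growth plate chondrocytes are the cartilage cells that lengthen a bone before it is replaced by mineralised tissue and marrow. In these single-cell RNA libraries of bone marrow niche cells they were chosen by measured counts of marker genes, so the marker values below describe the choice and support nothing further. A member had at least 20 unique molecular identifiers (UMIs, each counted as 1 captured RNA molecule) of Col2a1, at least 10 of Col9a1, Col9a2, Col9a3 and Matn3 summed, and at least 1 of Acan. It also had under 5 UMIs of Cytl1, a gene of articular-type cartilage, and 0 of Ptprc, which encodes CD45. A barcode was called a cell from 1000 UMIs and 500 detected genes upward if mitochondrial genes took less than 10% of its UMIs. The choice gave 342 members among 16318 called cells: 325 in the WT library, 15 in BMT and 2 in aGVHD.

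Each library was made from 1 group of female CB6F1 mice. The WT mice were untreated. The BMT (bone marrow transplantation) recipients were irradiated with 2 doses of 4.0 Gy and, 4 hours later, received 5000000 nucleated marrow cells of B6.SJL mice, which carry CD45.1. The aGVHD (acute graft-versus-host disease) recipients were treated in the same way and also received 60000000 spleen cells of female C57BL/6 mice. In all groups the marrow cells were sorted to remove cells stained for CD45, lineage antibodies or CD71, and live cells were kept by Calcein AM and DAPI. The sources used here give neither the age of the mice, their number per library nor the days from transplantation to collection. Each group is a single library, so no test is possible and no p-value is given, and the state of a group cannot be told apart from the handling of its library.

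In a growth plate, cells pass through zones. Resting cells near the end of the bone supply columns of proliferating cells, which then become prehypertrophic, make Indian hedgehog (Ihh) and express the parathyroid hormone receptor Pth1r. Hypertrophic cells make type X collagen (Col10a1) and prepare the matrix for mineral and blood vessels. Sox9 is the transcription factor that drives the cartilage genes, and Ucma encodes a small secreted protein of immature chondrocytes outside the hypertrophic zone.

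The median member held 18207 UMIs in WT (1921 to 77440) and 33563 in BMT (4366 to 56833), and the 2 aGVHD members held 4247 and 9365. The members were deeper than the called cells as a whole, with medians of 7355 for WT, 6932 for BMT and 6977.5 for aGVHD. Scores for likely doublets marked 33 of the 325 WT members and none of the others. No barcode was shared between members of different libraries. RNA of other cell types was counted by lists of their markers: 51 of 325 WT members held at least 100 per 10000 UMIs from such a list, 19 of them likely doublets, against 0 of 15 and 0 of 2 in the other libraries. Of these, 32 reached that level for osteoblast genes, 19 for fibroblast genes, 7 for erythroid genes and 4 for genes of LepR stroma. Summed over the WT members, the endothelial list stood at 24.2 counts per 1000000 UMIs (CPM) beside 319 in empty droplets (barcodes of at most 100 UMIs), the granulocyte list at 29.7 beside 10219, and the macrophage list at 106 beside 464. The Schwann list by contrast stood above empty droplets, at 383 CPM beside 87.7. Ltf, Ms4a1, Cd3e, Nkg7, Csf1r, Adgre1 and Pax7 were at 0, but most genes of their lists held at least 1 UMI. These were 7 of 8 granulocyte, 5 of 8 lymphoid, 6 of 9 macrophage and 5 of 7 skeletal muscle genes. The part of other cells' RNA in the results below was not tested beyond the values given without these 51 cells.

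The share of members was highest in WT, lower in BMT and lowest in aGVHD. They made up 4.56% of called WT cells (325 of 7129, exact 95% Clopper-Pearson interval 4.09 to 5.07), 0.414% in BMT (15 of 3621, 0.232 to 0.682) and 0.0359% in aGVHD (2 of 5568, 0.00435 to 0.130). All intervals cover counting error only and leave out the spread between mice and sorts. The WT share was 11.0 times that of BMT (6.57 to 18.4) and 127 times that of aGVHD (31.6 to 509). BMT stood 11.5 times above aGVHD (2.64 to 50.4), a ratio that rests on 2 cells. Among called cells without Ptprc, the shares were 4.88%, 0.590% and 0.0470%. Fewer chondrocytes, fewer released from the bone, and a larger number of other cells passing the sort cannot be told apart from these shares.

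**Figure D1:**
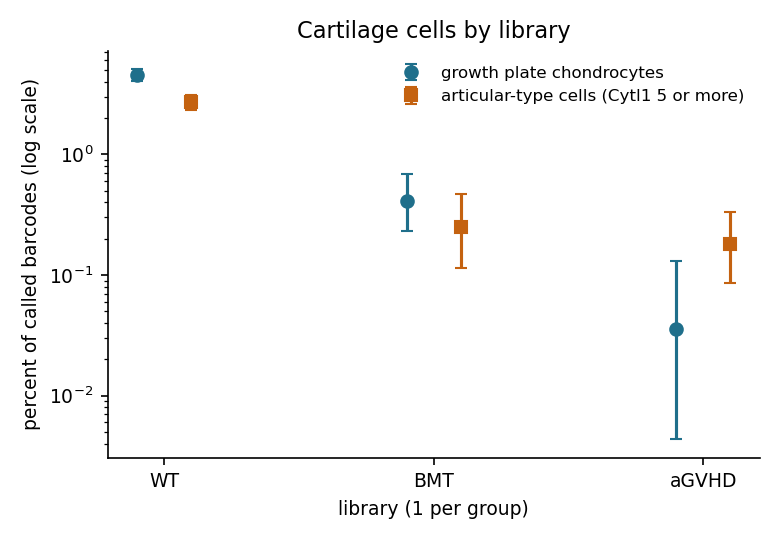
Percent of called barcodes (log axis) that were growth plate chondrocytes (circles) or articular-type cells with 5 or more UMIs of Cytl1 (squares) in the 3 libraries, with exact 95% intervals. The growth plate share was 4.56%, 0.414% and 0.0359% in WT, BMT and aGVHD, and the articular-type share was 2.69%, 0.249% and 0.180%.

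Cells with the same cartilage markers but 5 or more UMIs of Cytl1, called articular-type here, were also lower in both transplanted libraries. Their share was 2.69% in the WT library (192 cells), 0.249% in the BMT library (9 cells) and 0.180% in the aGVHD library (10 cells). The BMT share of these cells was 1.38 times the aGVHD share, with an interval of 0.563 to 3.40 that includes 1. The growth plate ratio of 11.5 and this one have intervals that overlap between 2.64 and 3.40, and the difference between them was not tested.

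The lower limits of the choice lay far below most WT members. Col2a1 ranged from 20 to 3693 UMIs with a median of 781, the summed Col9 and Matn3 genes from 10 to 1206 with a median of 252, and Acan from 1 to 414 with a median of 92. Just outside, 9 WT cells failed by Col2a1 alone (0 to 15 UMIs), 38 by the Col9 and Matn3 sum alone (0 to 9), 1 by Acan and 3 by Ptprc. The limit on Cytl1 removed more cells than the others: 192 WT cells failed it alone, with 5 to 858 UMIs and a median of 39.

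In WT the members held RNA of cartilage matrix genes beyond the genes that chose them. Levels are given as CPM of the UMIs summed over cells, not divided by gene length, so they compare cells rather than genes. Type XI collagen, which forms the core of cartilage fibrils with type II, was present in 325 of 325 cells through both chains. Col11a1 had a median of 73.0 per 10000 UMIs of a cell (6.59 to 228) and Col11a2 38.8 (3.24 to 133). The link protein Hapln1, which ties aggrecan to hyaluronan, had a median of 46.8 (2.58 to 143). Comp and Chad, which bind collagen fibrils, had medians of 32.4 and 18.98, and Lect1 (chondromodulin, an inhibitor of vessel growth) 31.1. Col2a1 itself, used by the choice, took 4.85% of all UMIs, and Sparc, a collagen-binding matrix protein, 2.60%. The proteoglycan-related Snorc, listed under its older clone name 3110079O15Rik, had 63575 UMIs, or 1.004%. Col11a1, Hapln1, Comp and Sparc were each found in 100% of WT members. As sums, the other cartilage collagens stood at 18923 CPM beside 2680 in empty droplets. The proteoglycan list stood at 27023 beside 10081 and the other matrix proteins at 61556 beside 16497. These genes were not set against the Cdh5 cells used below, so their presence in all members is not shown to be particular to cartilage.

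Genes that add sulfate to proteoglycans, a step on which growth plate matrix depends, were detected in most WT members. Papss2, which makes the sulfate donor, was at 496 CPM in 89.5% of cells, the sulfate transporter Slc26a2 at 284 CPM in 88.3%, and the chondroitin sulfotransferase Chst11 at 680 CPM in 95.4%. Xylt1, which starts glycosaminoglycan chains, was at 299 CPM in 93.5%. In empty droplets Papss2 stood at 45.1 CPM, Slc26a2 at 23.95, Chst11 at 58.1 and Xylt1 at 30.05. As a background for shares of cells, 367 WT cells with at least 3 UMIs of the endothelial gene Cdh5 and under 20 of Col2a1 were used, which were shallower, with a median of 4990 UMIs against 18207. Every cell was therefore also thinned to 3000 UMIs, which left 323 members and 293 Cdh5 cells. After thinning, Papss2 was found in 67.2% of members and 8.19% of Cdh5 cells, Slc26a2 in 50.5% and 8.53%, Chst11 in 75.2% and 6.48%, and Xylt1 in 52.01% and 3.07%.

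Among transcription factors, Sox9 was found in 99.1% of WT members with a median of 14.97 per 10000 (0 to 69.5), against 6.27% of Cdh5 cells (93.8% and 3.75% after thinning). Its partners Sox5 and Sox6 were found in 91.1% and 73.8% of members, which were 44.9% and 23.2% after thinning, beside 1.02% and 0% of Cdh5 cells. Runx2 and Runx3, which promote hypertrophy, were at 97.7 CPM in 72.9% and 237 CPM in 84.6% of members. After thinning they were found in 23.2% and 47.99%, against 0.683% of Cdh5 cells for either gene. Foxa2 and Foxa3, hypertrophy factors with overlapping roles, were found in 27.1% and 42.8% of members, and after thinning in 5.88% and 10.8%, with 0 of the Cdh5 cells for both. Trps1, a regulator of chondrocyte maturation, was found in 96.6% of members and 24.5% of Cdh5 cells (64.1% and 12.97% after thinning). Zbtb20 was common in both, at 86.4% of members and 71.3% of Cdh5 cells after thinning.

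Among signalling genes, Pth1r was found in 92.9% of WT members at 694 CPM, the hedgehog receptor Ptch1 in 84.6% at 180 CPM and the growth-restraining receptor Fgfr3 in 84.3% at 185 CPM. After thinning Pth1r was found in 60.99% of members and 0.683% of Cdh5 cells, Ptch1 in 41.5% and 4.78%, and Fgfr3 in 43.7% and 7.17%. The ligand Ihh was found in 10.5% of members at 26.2 CPM and in 0 of the Cdh5 cells. After thinning it was found in 3.72% of the members and 0% of the Cdh5 cells, where the exact 95% interval reaches 1.25%. Pthlh, the ligand of Pth1r, was at 12.2 CPM in the members and 17.3 CPM in empty droplets. It was found in 11.1% of members and 2.72% of the shallower Cdh5 cells. After thinning these shares were 3.41% and 2.73%, with 11 members holding it. On so few cells Pthlh was not told apart from background, and its absence is not shown. Hhip, a hedgehog target that binds the ligand, was at 67.6 CPM and Gli1, another target, at 13.1 CPM. Prkg2, a kinase downstream of the natriuretic peptide receptor Npr2, was at 212 CPM and Npr2 at 34.7 CPM.

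The WT members were divided by Col10a1, the gene of hypertrophic cells, and Ucma. Col10a1 lies on chromosome 10 at 34389981-34397085 (+ strand) and Ucma on chromosome 2 at 4976122-4985748 (+ strand) in GRCm38 with GENCODE M21 annotation. Their promoters are shown because the ranges that follow were cut on these 2 genes: the 250 bases before each start in RefSeq's GRCm38.p6, at chr10:34389731-34389980 and chr2:4975872-4976121, both on the + strand. Capitals mark matches to TGTGGT (bound by RUNX factors), ACAAAG (a core bound by SOX factors) or TATAAA on either strand.
Col10a1: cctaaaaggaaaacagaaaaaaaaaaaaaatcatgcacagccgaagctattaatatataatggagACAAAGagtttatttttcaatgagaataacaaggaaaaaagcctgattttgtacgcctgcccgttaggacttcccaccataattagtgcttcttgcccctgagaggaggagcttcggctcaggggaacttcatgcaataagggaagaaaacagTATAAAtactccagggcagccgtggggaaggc
Ucma: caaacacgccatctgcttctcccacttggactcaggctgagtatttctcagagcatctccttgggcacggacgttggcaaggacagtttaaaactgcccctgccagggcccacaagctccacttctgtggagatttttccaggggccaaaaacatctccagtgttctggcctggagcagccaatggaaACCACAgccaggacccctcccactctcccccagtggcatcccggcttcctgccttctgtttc
In Col10a1, ACAAAG begins 185 bases before the start and TATAAA 32 bases before it, and TGTGGT is not among these letters. In Ucma, TGTGGT occurs on the other strand, read as ACCACA, 62 bases before the start, and the other 2 motifs are not among these letters. Of 32851 promoters of the same length, 4614 hold TGTGGT, 5408 (16.5%) ACAAAG and 4063 (12.4%) TATAAA, so each match is common, and it describes the letters only.

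Most WT members held Ucma and few held Col10a1. Ucma had a median of 17.3 per 10000 UMIs (0 to 118) and was found in 94.5% of cells, against 1.63% of the Cdh5 cells (86.7% and 1.37% after thinning). Col10a1 was found in 11.4%, against 2.45% (5.88% and 1.02% after thinning), and reached 587 per 10000 in the highest cell, which held 39.3% of all its UMIs. At a limit of 5 per 10000 for each gene, 259 cells (79.7%) had Ucma only, 46 (14.2%) neither, 12 (3.69%) Col10a1 only and 8 (2.46%) both. These ranges are slices of measured levels, not cell types. For Ucma 22 cells lay between 4 and 6 per 10000, and for Col10a1 1 cell did. The Col10a1-only cells were shallower, with a median of 9935.5 UMIs, and those with both were deeper, with 30791.5. The neither range held 11 of the likely doublets and 21 of the 51 cells with RNA of another type.

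**Figure D2:**
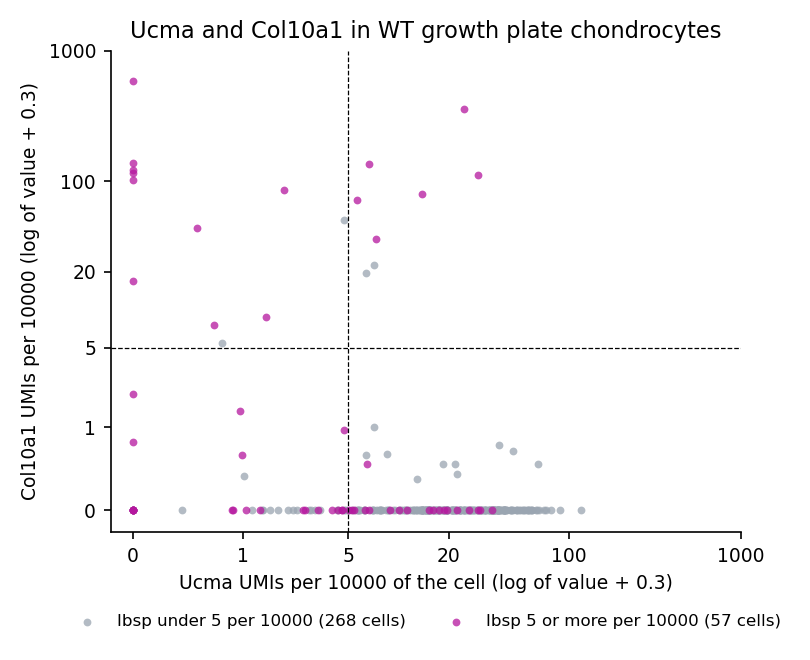
Ucma (horizontal) and Col10a1 (vertical) UMIs per 10000 in each of the 325 WT growth plate chondrocytes, on log axes of the value plus 0.3, with dashed lines at 5 and cells with Ibsp at 5 or more per 10000 in purple. Most cells lie at 0 on the Col10a1 axis, and of the 20 cells above its line 16 held Ibsp at 5 or more.

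Outside the members, Col10a1 was not limited to cells that passed the choice. Of 63 called WT cells with Col10a1 at 5 or more per 10000 (and at least 3 UMIs), 20 were members and 25 had 5 or more UMIs of Cytl1. A further 9 held under 20 UMIs of Col2a1 and 9 failed another limit.

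The Col10a1-only cells had more RNA of prehypertrophic and hypertrophic genes than the Ucma-only cells. Genes were compared by size: at least 50 UMIs over both sides, at least a 2-fold difference, an exact 95% interval of the ratio that excludes 1, and a higher side at least 2 times the empty droplets. By this rule 209 of 7095 genes (2.95%) were higher in the Col10a1-only cells and 171 (2.41%) lower, with a median log2 ratio over all of them of -0.12. Because UMIs of 1 cell are not independent and this side has 12 cells, the share of a gene's UMIs in its highest cell is given where it was large. Of the 209 higher genes, 31 had over 50% of their UMIs in 1 cell. RNA of another type was held by 3 of the 12 Col10a1-only cells and 26 of the 259 Ucma-only cells. Without such cells 17 of the 20 leading genes still passed.

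Of 9 measured hypertrophic genes, 7 were higher and 0 lower, with a median log2 ratio of 2.72. Ibsp, a phosphoprotein that binds mineral, was 62.7-fold higher (95% interval 59.7 to 66.0), at 28052 against 447 CPM. It was found in 83.3% of the Col10a1-only cells and 21.2% of the Ucma-only cells, and 50.5% of its UMIs in the former came from 1 cell. Alpl, the phosphatase that frees phosphate for mineral, was 8.75-fold higher (7.92 to 9.66) at 2864 against 327 CPM, found in 100% and 63.7% of cells. Alpl was thus spread over the cells: its highest cell held 16.9% of its UMIs. Mef2c, a factor that turns on hypertrophy, was 6.58-fold higher (5.55 to 7.77) and found in 100% against 51.7% of cells. Loxl4, a collagen cross-linking enzyme, was 4.56-fold higher and Cd200 8.82-fold. Vegfa, the vessel growth factor, was 4.17-fold higher with 52.5% of its UMIs in 1 cell. Spp1 was 5.38-fold higher, but 95.8% of its UMIs in the Col10a1-only cells came from 1 cell and it was found in 3 of the 12, against 37.1% of the Ucma-only cells. Mmp13, the collagenase of terminal hypertrophic cells, was at 81.4 against 6.94 CPM and below the 119 CPM of the empty droplets in both.

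Of 11 prehypertrophic genes, 5 were higher and 1 lower, with a median log2 ratio of 0.68. Mef2c is on both this list and the hypertrophic list and is counted in each, here and in the divisions below. Ihh was 29.5-fold higher (18.5 to 47.2), at 222 against 7.53 CPM, and was found in 58.3% against 5.41% of cells. Pth1r was 6.15-fold higher (5.59 to 6.76), and Panx3, a channel protein of maturing chondrocytes, 3.84-fold (3.11 to 4.70). Pth1r was found in 91.7% of the Col10a1-only and 93.1% of the Ucma-only cells, and Panx3 in 91.7% and 42.9%, shares that move with level and depth. Bmp2 was 2.62-fold higher. Runx3 was the lower gene, by 2.12-fold (1.41 to 3.36), and Runx2 stood at 146 against 91.4 CPM, short of the 2-fold limit. Sox9 stood at 1166 against 1677 CPM, also short of it.

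The remaining genes with the largest differences included an inhibitor of Wnt ligands, Frzb, 20.8-fold higher (14.8 to 28.9), and 2 enzymes of prostanoid metabolism. Ptgis, prostacyclin synthase, was 16.4-fold higher and found in 9 of 12 against 16.6% of cells, and Hpgd, which degrades prostaglandins, 12.0-fold. The kinase gene Wnk4 was 15.7-fold higher, and Ptges3l 18.5-fold with 72.0% of its UMIs in 1 cell. Cdkn1c, a cell cycle inhibitor, was 7.92-fold higher with 60.2% of its UMIs in 1 cell, and it was found in 9 of 12 against 70.3% of cells.

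On the lower side, C1qtnf3, a secreted protein of cartilage, had 0 UMIs in the 12 Col10a1-only cells. The Ucma-only cells held 2922, in 68.3% of cells. With 0 set to a floor of 3 UMIs over the group C1qtnf3 was 35.6-fold lower, with an interval from 28.9. Mgp, an inhibitor of calcification, was 5.38-fold lower (4.92 to 5.90), at 2576 against 13861 CPM. Prelp, a leucine-rich matrix protein, was 4.71-fold lower (3.68 to 6.13). The imprinted RNA Meg3 was 8.09-fold lower (4.51 to 16.2), with all of its 11 UMIs in 1 of the 12 cells. H19, also imprinted, had 2 UMIs against 1529, a ratio of 27.9 (7.72 to 231), and Chil1 1 against 685, a ratio of 25.03 (4.48 to 990). Tgfbi had 3 UMIs against 992, a ratio of 12.1 (4.12 to 58.7), and Crispld2 3 against 908, a ratio of 11.1 (3.77 to 53.7). Pcp4 had 0 against 595 and was 7.25-fold lower at the same floor, with an interval from 5.88. Tm4sf1 was 16.3-fold lower (7.89 to 40.5), and the phospholipase Pla2g5, on the resting zone list, 8.68-fold (3.71 to 26.8).

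Lists of resting and proliferative genes did not follow 1 direction. Of 10 resting zone genes 1 was higher, Foxa2 at 2.57-fold, and 2 lower, Sfrp5 and Pla2g5, with a median of -0.998. Foxa2 is on this list although it was also named above as a hypertrophy factor, so its direction does not speak for resting cells alone. Of 11 proliferative genes, Matn1 (3.45-fold) and Comp (2.15-fold) were higher and Prelp and Epyc (2.35-fold) lower. In the hedgehog list of 12 genes, Ihh and Pth1r were higher while the targets Ptch1 and Hhip were lower: Ptch1 by 5.84-fold (2.67 to 16.0), and Hhip with 1 UMI against 405, a ratio of 14.8 (2.64 to 586). Thus more RNA of the ligand stood beside less RNA of these targets in the sums over the 12 Col10a1-only cells. Whether single cells held both was not tested. Of 20 sulfation genes Chst1 was higher, and Slc26a2 (2.55-fold) and Chst11 (2.22-fold) lower. None of 31 genes of collagen folding and secretion was higher, and Creb3l2 and Plod3 were lower. Col2a1 was at 59032 against 49067 CPM, and 0 of the 6 genes of the choice passed the size rule.

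**Figure D3:**
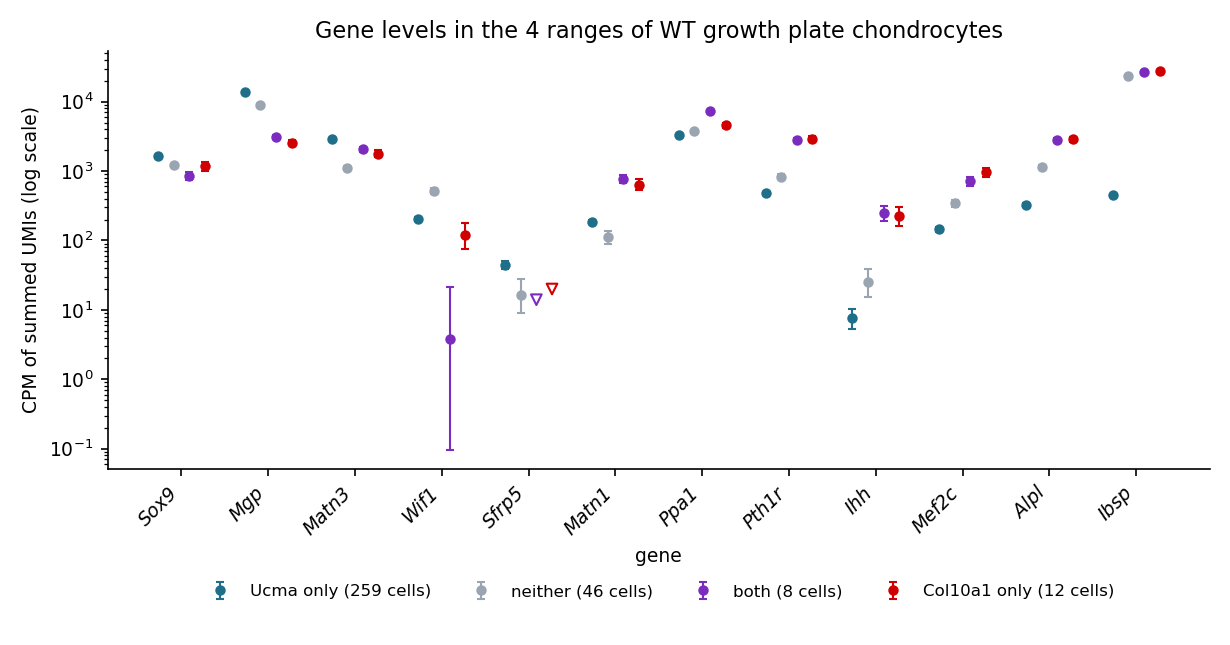
CPM (log axis) of 12 genes in the 4 ranges of WT growth plate chondrocytes, with exact 95% Poisson intervals of the summed UMIs. Open triangles mark the upper limit where a range had 0 UMIs. Pth1r, Ihh, Mef2c and Alpl are highest in the 2 ranges with Col10a1, while Ibsp lies close together in the neither, both and Col10a1-only ranges, at 23563, 26394 and 28052 CPM.

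The 8 cells with both genes had values close to those of the Col10a1-only cells in these genes. Their Alpl stood at 2787 CPM, Pth1r at 2829, Ihh at 251 and Panx3 at 612, beside 2864, 2934, 222 and 591 in the Col10a1-only cells. Ibsp by contrast was high in the 46 cells with neither gene, at 23563 CPM, where Alpl was 1133, Ihh 25 and Col1a1, the type I collagen of bone, 9648 CPM. Col1a1 was at 555 CPM in the Ucma-only cells, 927 in the Col10a1-only cells and 3490 in empty droplets. Across bins of Col10a1 (0, above 0, 5 to 20, 20 to 100, and 100 or more per 10000, with 288, 17, 5, 7 and 8 cells), Alpl was 409, 886, 2542, 2606 and 3432 CPM. Sox9 was 1620, 1466, 1356, 1140 and 396 CPM. Ucma was 2296, 1562, 207, 655 and 1494 CPM, so the cells with the most Col10a1 held nearly as much Ucma as those with a little of it. The upper 4 bins are thin, and no trend is read from them.

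The levels of Ibsp called for a second division, chosen after its values were seen. Ibsp (chromosome 5 at 104299171-104311469, + strand) had a median of 0 and a highest value of 1549 per 10000, and 57 WT members (17.5%, 13.6 to 22.1) held 5 or more. It was found in 30.5% of members and 8.17% of Cdh5 cells (20.4% and 5.80% after thinning). Only 16 of the 57 held Col10a1 at 5 or more. Of these 57 cells 26 carried RNA of another cell type, against 25 of the other 268. Both sides had near-equal depth, with medians of 18207 and 18150 UMIs.

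Of 9 hypertrophic genes other than Ibsp, 6 were higher and 0 lower. In this comparison 105 of 7759 genes (1.35%) were higher and 223 (2.87%) lower, and the median log2 ratio of all was -0.09. The Ibsp cells hold 16 of the 20 cells with Col10a1 at 5 or more. This is therefore not independent of the division by Col10a1. Col10a1 was 45.1-fold higher (40.5 to 50.3), Spp1 30.1-fold (28.3 to 31.9) and Alpl 6.89-fold (6.46 to 7.36). Col10a1 was found in 38.6% against 5.60% of cells, with 43.4% of its UMIs in the Ibsp cells in 1 cell. Alpl was found in 91.2% against 63.4% of cells. Without the 51 cells that held other cells' RNA, the log2 ratio of Alpl was 2.86 beside 2.79 with them, that of Col10a1 6.08 beside 5.49, and that of Spp1 4.15 beside 4.91. All 3 passed the size rule in both settings. The remaining cells are those under 100 per 10000 for each list, not cells without such RNA.

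The bone collagens Col1a1 and Col1a2 were 11.7-fold (11.2 to 12.2) and 7.58-fold (7.33 to 7.84) higher. Without the 51 cells their log2 ratios were 0.67 beside 3.55 and 1.25 beside 2.92, and neither passed the size rule. Both genes are on the osteoblast list by which 32 of the 51 cells were picked, so a lower value follows from that choice and nothing is read from it. Irx5 and Ptgis, 12.5-fold and 12.0-fold higher, also no longer passed without them. Kera, 12.4-fold higher, had 98.2% of its UMIs in 1 cell, and its log2 ratio was -0.22 without the 51 cells. Bglap, the osteocalcin gene of mature osteoblasts, was at 1790 against 522 CPM and below the empty droplets on both sides. Hpgd (16.3-fold), Pltp (14.8-fold) and Frzb (7.55-fold) were higher, and Fn1 2.33-fold.

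The prehypertrophic genes Ihh, Pth1r, Mef2c, Panx3 and Bmp2 were higher in the Ibsp cells by smaller factors, of 3.92, 2.87, 2.98, 2.30 and 2.04. Ucma was 2.92-fold lower (2.73 to 3.12), Mgp 2.09-fold and Matn3, one of the genes of the choice, 2.49-fold. Sox9 stood at 869 against 1716 CPM, just short of the limit. Of 22 sulfation genes 5 were lower and 1 higher. Papss2, Slc26a2, Chst11, Xylt1 and Csgalnact1 were lower, Chst11 by 3.52-fold, and Chst1 was higher. Tgfbi was 5.42-fold lower (3.98 to 7.56), Ppif, a regulator of the mitochondrial pore, 9.87-fold, and Ptgds, prostaglandin D synthase, 8.88-fold. Xlr3c was 8.44-fold and Pcp4 4.72-fold lower. Gal had 2 UMIs against 189, a ratio of 20.4 (5.56 to 169), Tspan18 2 against 174, a ratio of 18.7 (5.11 to 156), and Col25a1 1 against 97, a ratio of 20.9 (3.66 to 834). Ptcra had 0 against 160 UMIs, 41.3% of them in 1 cell, and was 11.5-fold lower at the floor of 3 UMIs (interval from 9.24). Col26a1 had 0 against 66 and was 4.74-fold lower at the floor (interval from 3.75).

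Another division, also chosen after the values were seen, was by Ppa1. Ppa1 (chromosome 10 at 61648552-61674168, + strand) encodes an inorganic pyrophosphatase, an enzyme that splits pyrophosphate into phosphate. Its level varied widely between the cells: the median was 5.03 per 10000, the quartiles were 0.663 and 42.3, and the highest cell reached 229. At 20 per 10000, 120 members (36.9%, 31.7 to 42.4) were above and 205 below, with 106 cells at 1 or fewer and 45 between 10 and 30. The upper cells were deeper, with a median of 21960.5 UMIs against 15770, and 11 of them against 40 of the lower cells held RNA of another type. Of the 57 Ibsp cells 13 were in the upper group.

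**Figure D4:**
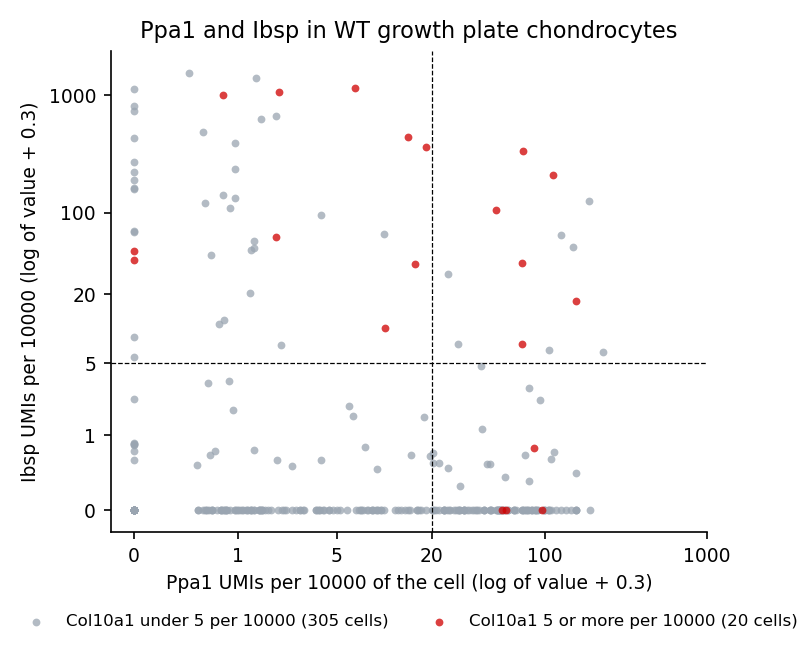
Ppa1 (horizontal) and Ibsp (vertical) UMIs per 10000 in each WT growth plate chondrocyte, on log axes of the value plus 0.3, with dashed lines at 20 and 5. Cells with Col10a1 at 5 or more (red, 20 cells) lie on both sides of the Ppa1 line, 10 of them above it, and 13 cells lie above both lines.

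The upper Ppa1 cells had more RNA of prehypertrophic genes and less of resting zone genes. In this comparison 80 of 7759 genes (1.03%) were higher and 143 (1.84%) lower, with a median log2 ratio of -0.04. Of 10 prehypertrophic genes 5 were higher and 0 lower. Panx3 was 4.34-fold higher (3.80 to 4.97) and found in 85.0% against 25.9% of cells. Ihh was 4.15-fold higher (2.86 to 6.16), Mef2c 2.40-fold, Dlx5, a homeobox factor of chondrocyte maturation, 2.34-fold and Pth1r 2.22-fold. Pth1r was found in 100% against 88.8% of cells, and the greater depth of the upper cells moves such shares in the same direction. Matn1, a cartilage matrix protein, was 5.07-fold higher (4.42 to 5.83), Epyc 2.68-fold, Cdkn1c 4.16-fold and Smpd3, a sphingomyelinase of skeletal cells, 3.01-fold. Matn1 and Epyc are on the proliferative list, where 2 of 11 genes were higher and 0 lower, with a median log2 ratio of 0.41. Grb14 (5.42-fold), the fructose transporter gene Slc2a5 (4.49-fold), Rspo4, which enhances Wnt signals (4.46-fold), Pak3 (4.10-fold) and Cox4i2 (3.04-fold) completed the 10 leading genes. The highest cell held at most 20.9% of the UMIs of any of these 10 genes, and none of the 80 higher genes had over 50% in 1 cell.

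Of 11 resting zone genes 3 were lower and 1 higher, with a median log2 ratio of -2.49. Sfrp5, a secreted Wnt inhibitor, was 32.3-fold lower (14.6 to 89.0) and found in 5.00% against 31.7% of cells. Spon1 was 27.4-fold lower (14.3 to 60.6) and Wif1, another Wnt inhibitor, 15.1-fold (12.0 to 19.3). The gene that was higher was Foxa2, 3.65-fold, which was also named above as a hypertrophy factor. Pthlh stood at 1.73 against 20.9 CPM beside 17.3 in empty droplets, and Apoe at 104.5 against 1333 CPM beside 895, so neither passed the limit over empty droplets. In the hedgehog list, Ihh and Pth1r were higher while Gli2 (7.87-fold) and Hhip (4.15-fold) were lower.

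Rbp4, a retinol carrier, was 22.6-fold lower (17.7 to 29.2), Smoc2 7.61-fold and Pcp4 7.30-fold. Ibsp was 9.55-fold lower (9.19 to 9.93) and Spp1 10.8-fold (10.02 to 11.7). Without the 51 cells with other RNA the log2 ratio of Spp1 was -1.82 beside -3.44, and Spp1 passed the size rule neither then nor with its highest cell left out on each side. Piezo2, a mechanically gated channel, had 1 UMI against 63, a ratio of 52.9 (9.16 to 2123), and Atp6v0a4 was 16.0-fold lower (6.60 to 50.3). Ucma was at 1698 against 2513 CPM and Sox9 at 1357 against 1741, both short of the limit, and Col10a1 at 560 against 696.

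Few WT members held RNA of cell division. The G2 and M phase list summed to 14.5 per 10000 UMIs over the members and 20.1 in empty droplets, and the S phase list to 4.70 and 7.99. In single cells the spread was wide: 31 of 325 members held 20 or more per 10000 of the G2 and M genes, up to 195, beside a median of 6.42. Of these 31 cells 29 were in the Ucma-only range, 2 in neither and 0 in the 2 ranges with Col10a1. After thinning, 36 cells were at that level, 32 of them Ucma only and 4 neither. The ranges with Col10a1 hold 20 cells in all, too few to show that such cells are absent there. Mki67, a proliferation marker, was found in 12.9% of members and 4.09% of Cdh5 cells, and in 4.02% and 3.07% after thinning. By Ppa1, 16 of 120 upper cells and 15 of 205 lower cells held 20 or more of the G2 and M genes.

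The 15 BMT members were compared with the 325 WT members by the same size rule. They held the same cartilage genes: Col2a1 was at 55200 against 48470 CPM, Hapln1 at 7719 against 5285, Col11a1 at 11815 against 8353 and Mgp at 11422 against 12442. Col2a1 ranged from 188 to 3811 UMIs among the 15 cells with a median of 1903, and Sox9 from 6 to 82 UMIs with a median of 33, so every BMT member held both. None of these genes passed a 2-fold difference. In all, 137 of 7960 genes (1.72%) were higher in BMT and 105 (1.32%) lower, with a median log2 ratio of -0.07. Of the 137, 38 had over 50% of their UMIs in 1 cell, and with each gene's highest cell left out on both sides 28 genes were higher.

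**Figure D5:**
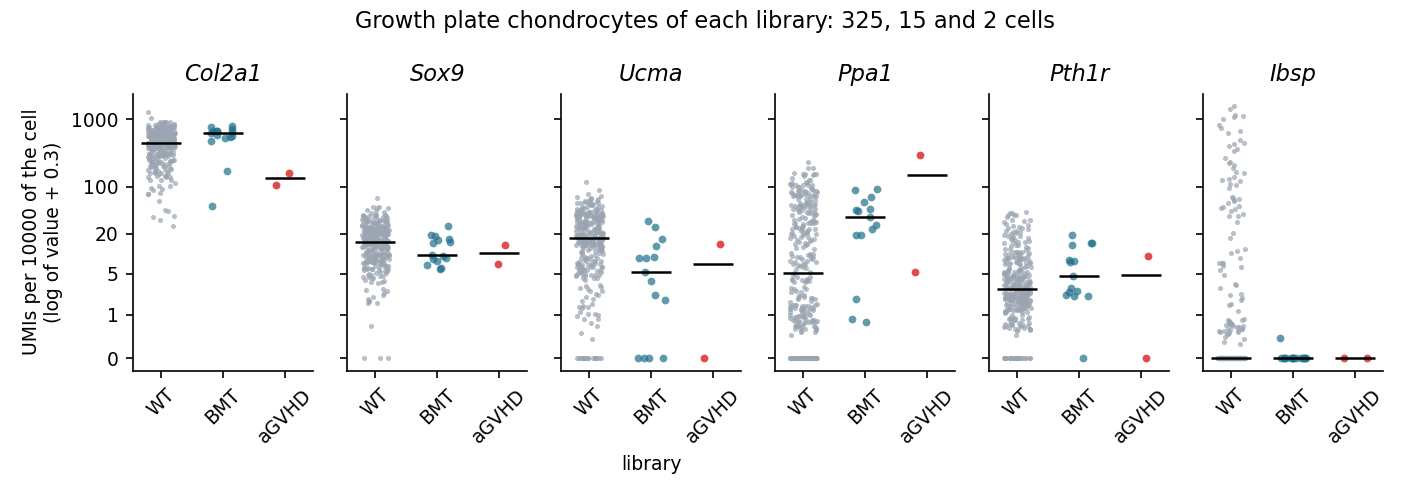
UMIs per 10000 (log axis of the value plus 0.3) of 6 genes in each growth plate chondrocyte of WT (325 cells), BMT (15) and aGVHD (2), with the median as a line and points spread sideways at random. Col2a1, Sox9 and Pth1r overlap between WT and BMT, while in BMT Ibsp does not exceed 0.288 per 10000 and Ucma has a median of 5.36 beside 17.3 in WT.

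Several resting zone and hedgehog genes were lower in BMT. Of 11 resting zone genes 4 were lower and 0 higher (median log2 ratio -2.06), and of 13 hedgehog genes 4 were lower and 0 higher (-1.76). Ucma was 2.25-fold lower (2.04 to 2.48), at 951 against 2141 CPM, and was found in 11 of the 15 cells, with 0 to 110 UMIs and a median of 18. The BMT values lay within the WT range. Wif1 had 4 UMIs, 26.3-fold lower (10.3 to 96.8), Pla2g5 was 3.05-fold lower and Sfrp5 had 1 UMI against 237, a ratio of 16.8 (2.99 to 668). Ihh had 0 against 166 UMIs and was 3.93-fold lower with 0 set to the floor of 3 UMIs. Hhip was 3.38-fold lower, and Gli1 and Gli2 had 1 UMI each against 83, a ratio of 5.90 (1.03 to 236) for either. Over cells the precision is smaller than over UMIs: from 0 of 15 cells the exact 95% interval reaches 21.8%, and Ihh was found in 10.5% of WT members.

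Ibsp had 1 UMI in the 15 BMT members against 34165 in WT, at 2.22 against 5394 CPM and beside 388 in the empty droplets of BMT. The ratio was 2427 (436 to 95871). No BMT member reached 5 per 10000, but with 15 cells a share of up to 21.8% is allowed, and in WT it was 17.5%. That the BMT library lacked such cells is therefore not shown at this number. Col10a1 was at 1565 against 634 CPM, with 701 of its 704 UMIs in 1 cell. At the limits used in WT, 8 BMT members had Ucma only, 6 neither, 1 Col10a1 only and 0 both. For Ppa1, 10 of 15 BMT members (66.7%, 38.4 to 88.2) reached 20 per 10000, against 36.9% in WT, and Ppa1 stood at 4445 against 3555 CPM.

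Other genes lower in BMT included Pcp4, with 0 against 688 UMIs, which 34.2% of WT members held. At the floor of 3 UMIs Pcp4 was 16.3-fold lower, with an interval from 13.2. Chil1 (11.3-fold, 4.84 to 35.0), Serpina1a, a protease inhibitor (9.41-fold, 5.10 to 19.7), and F13a1, a transglutaminase (7.78-fold, 3.76 to 19.4), were also lower. H19 was 4.48-fold lower, Chad 2.80-fold, Fn1 2.63-fold and Ctgf 2.61-fold. Pappa2, a protease that frees insulin-like growth factors, had 0 against 94 UMIs and was found in 26 of 325 WT members. It was 2.23-fold lower at the floor of 3 UMIs.

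Genes higher in BMT included Lrrc15, a membrane protein, at 12.5-fold (7.43 to 20.8), which was found in 6 of 15 against 5.23% of cells. Sfn was 7.76-fold higher (5.22 to 11.4) and found in 9 of 15 against 14.2%, Taf4b 5.57-fold (9 of 15 against 21.2%) and Ccng1 4.86-fold (3.63 to 6.45), found in 66.7% against 38.2%. Depth differed in the same direction, with medians of 33563 and 18207 UMIs, and its part in these shares of cells was not tested. Tnfsf9 (12.1-fold) had 96.8% of its UMIs in 1 cell and Socs4 (4.94-fold) 65.0%. Their log2 ratios with the highest cell left out were -1.11 and 0.97, and neither then passed. With every cell thinned to 3000 UMIs, 3 of the 12 leading genes still passed, namely Ibsp, Wif1 and Serpina1a, and 0 of the 6 higher ones. The log2 ratios of Lrrc15, Sfn, Taf4b and Ccng1 were then 5.01, 3.65, 3.58 and 2.43, on few UMIs. Epyc was 2.22-fold higher (1.98 to 2.48) and found in 93.3% against 73.8% of cells.

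Sfn and Ccng1 are known as p53 targets, the response to DNA damage. In the p53 list of 20 measured genes, which holds Ccng1 but not Sfn, 1 was higher and 0 lower, with a median log2 ratio of 0.64. Cdkn1a was at 471 against 171 CPM, with 51.4% in 1 cell and 457 CPM in the empty droplets of BMT. Bax was at 182 against 101 (empty droplets 182) and Mdm2 at 66.7 against 38.2 (106). The summed list stood at 1370 CPM in WT members (1341 to 1399) and 2503 in BMT members (2358 to 2653), beside 1030 and 2192 in empty droplets. Since the size rule asks for at least 2 times the empty droplets, genes of this list had little room to pass. The count of 1 higher gene is therefore not read as a lack of a response. In the endothelial Cdh5 cells it stood at 2134 and 4801 CPM.

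Of 24 hypoxia and glycolysis genes, 5 were higher and 0 lower in BMT: Bnip3 (4.21-fold, 62.9% of its UMIs in 1 cell), the glycolytic enzymes Pgk1 (2.36-fold, 1.61 to 3.37) and Pfkl (2.07-fold), Pdk1 (2.01-fold) and P4ha1, a collagen prolyl hydroxylase subunit (2.05-fold, 1.80 to 2.33). P4ha1 was found in 100% against 92.9% of cells. Of 32 G2 and M phase genes 7 were higher, and 1 cell accounted for most of it: it held 96.2% of the UMIs of Cdk1, 92.5% of Top2a, 96.7% of Ube2c and 100% of Hmmr. The 16 UMIs of Mki67 in BMT also lay in 1 cell.

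Interferon and MHC class I genes, which respond to inflammation, did not pass the size rule between WT and BMT members. None of 8 interferon gamma genes was higher or lower (median log2 ratio 0.23), nor did any of 4 type I interferon genes (0.08) or 9 MHC class I genes (0.29). The interferon gamma list summed to 385 CPM in WT members (370 to 400) and 456 in BMT members (395 to 522). Per cell the medians were 3.05 per 10000 (0 to 25.2) and 4.17 (2.29 to 11.6), so every BMT member lay within the WT range. In the Cdh5 cells of the same libraries without Ptprc (362 and 710 cells) the list stood at 2877 and 10006 CPM, and in empty droplets at 1271 and 8020. MHC class I genes were at 710 and 760 CPM in the members and at 4939 and 15639 in the Cdh5 cells. In empty droplets they stood at 2887 and 13621 CPM. The type I interferon list stood at 74.5 and 64.5 CPM in the members and at 506 and 1961 in empty droplets. In both libraries these lists thus summed to less than in empty droplets, while the size rule asks for at least 2 times that level. The rule could therefore hardly be passed, and no lack of a response is read from these counts. B2m, the shared light chain, was at 142 against 95.6 CPM, H2-K1 at 138 against 107 and H2-D1 at 250 against 220 in WT and BMT members. Whether the members' difference is smaller than that of the Cdh5 cells was not tested, since each has 1 library per group.

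The 2 aGVHD members are described only. The cell of 9365 UMIs held 152 UMIs of Col2a1, 16 of Acan, 13 of Sox9 and 1 of Ihh. The cell of 4247 UMIs held 45 of Col2a1, 24 of Acan and 3 of Sox9, and also 6 of Ucma and 4 of Pth1r. Col10a1 and Ibsp had 0, and the 2 cells together held 13612 UMIs, of which up to 3 are allowed by a count of 0. Ppa1 stood at 5.34 per 10000 in the cell of 9365 UMIs and 292 in the other. Fos (157 UMIs) and Jun (214 UMIs), early genes that tissue dissociation induces, were found in the cell of 9365 UMIs and not in the other. Cdkn1a had 45 UMIs in the former and 4 in the latter. The interferon gamma list had 3 UMIs and the MHC class I list 7.

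Beside the 192 articular-type WT cells, chosen by the same limits but for Cytl1, the growth plate members differed in few genes. Of 8921 genes 55 (0.617%) were higher in the growth plate members and 78 (0.874%) lower, with a median log2 ratio of 0.01. The comparison leaves out Cytl1, which chose the sides. Prg4, lubricin of the joint surface, was 52.5-fold lower (50.04 to 55.2), at 267 against 14042 CPM, and the articular genes Abi3bp and Crispld1 were 4.26-fold and 2.08-fold lower, so 3 of 8 articular genes were lower and 0 higher. Prg4 in the growth plate members lay below the empty droplets, which stood at 2451 CPM, and so did the median articular-type cell. Prg4 was found in 37.5% of the growth plate members and 59.4% of the articular-type cells. Its ratio therefore compares sums, and the high articular-type sum came from part of those cells, with 8.72% of the UMIs in the highest cell. Chrdl2, a BMP antagonist, was 25.6-fold lower (13.0 to 57.4), Barx1, a homeobox factor of joints, 10.1-fold (6.60 to 16.1), Pla2g10 8.92-fold and Mup5 90.9-fold, the last with 87.1% of the UMIs on its higher side in 1 cell. Grem1, another BMP antagonist, was 5.08-fold lower and Frzb 3.20-fold.

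Higher in the growth plate members were Ppa1, 2.99-fold (2.89 to 3.102) at 3555 against 1187 CPM, Panx3, 2.41-fold (2.11 to 2.76), and Epyc, 2.18-fold. The secreted factors Il17b and C1qtnf3 were 2.999-fold (2.54 to 3.56) and 2.76-fold higher, found in 51.7% against 21.4% and 60.9% against 26.6% of cells. Pcp4 was 2.70-fold and Dlk2 5.401-fold higher. Ptcra, the pre-T cell receptor chain, had 160 UMIs against 1, a ratio of 77.2 (13.7 to 3067). It was found in 13 members, with 41.3% of its UMIs in 1 cell.

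Genes of the growth plate zones differed between the growth plate members and the articular-type cells in both directions, and those of the hypertrophic zone were not higher in the former. Col10a1 was 8.34-fold lower in the growth plate members (8.05 to 8.63), at 634 against 5287 CPM and in 11.4% against 18.8% of cells. Ucma stood at 2141 against 1906 CPM, Ibsp at 5394 against 4937, Ihh at 26.2 against 37.3, Pth1r at 694 against 557, Alpl at 610 against 563 and Sox9 at 1566 against 1519, and none of these passed. Among 11 prehypertrophic genes, Panx3 and Ppa1 were higher and Bmp2 and Slc20a1 lower. Among 11 hypertrophic genes, Col10a1 and Loxl4 were lower and 0 higher. Of 13 resting zone genes, Wif1 (2.46-fold) and Barx1 were lower and 0 higher, and of 11 proliferative genes Epyc was higher and 0 lower. Cells with high Col10a1 and 5 or more UMIs of Cytl1 are thus outside the members by the limit on Cytl1, and the 20 Col10a1 cells described here are those left within it.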

How the data were processed

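Each sample is a droplet single-cell library of sorted marrow niche cells, 1 per group. The deposited matrices hold raw counts, which the authors left without normalisation: whole UMIs for each gene in each barcode. Cell Ranger, Seurat and the mm10 build are named in the submitters' processing notes, and Cell Ranger 3.1.0 per the file headers. All barcodes are kept, empty droplets included, with 27998 genes, so cells were called here. Library totals were 86575425 (WT), 44219063 (BMT) and 67439098 UMIs (aGVHD), and the members' summed UMIs 6333407, 449942 and 13612.

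UMIs were summed over cells and given as CPM with exact Poisson intervals. Ratios of sums carry exact 95% intervals conditional on the summed counts, and those of shares a normal approximation on the log scale. A sum of 0 was set to a floor of 3 UMIs. All intervals cover counting error only. Doublets were scored by a simulation of the Scrublet type and the highest scores, at 0.8% per 1000 called cells, were called likely doublets and kept unless stated. Thinning drew 3000 UMIs per cell (seed 1) and left out 2 shallower WT members. The size rule was tried on simulated sums of independent counts without empty droplets. That simulation covers neither UMIs gathered in 1 cell nor the limit over empty droplets. Python 3.11.15, NumPy 2.4.6, pandas 2.3.3, SciPy 1.17.1 and scanpy 1.11.5 were used.

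The members, gene lists and ranges were chosen with earlier results of these data known. The named genes were the 20 with the most UMIs, the 10 higher and 10 lower (6 and 6 between libraries and between cell groups) ranked by the interval bound nearest to 1, a fixed set of zone genes and leading members of each list. Ribosomal, mitochondrial, haemoglobin, immunoglobulin, Y-linked and unnamed genes and Xist were left out of the ranking, while other X-linked genes were kept. Genes named beyond this rule were chosen after their values were seen. The divisions by Ibsp and Ppa1, and the settings without cells that hold other cells' RNA and without each gene's highest cell, were added after seeing the data. Alternatives tried were other cell limits, cuts, UMI minimums, totals, thinning and doublet removal.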

Additional observations from a re-analysis of the deposited data

How the results depend on the processing

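The order of the shares, WT above BMT above aGVHD, held in every setting run. The WT share was 5.69% with cells thinned to 3000 UMIs, 7.25% with no limit on Cytl1 and 3.87% without cells holding RNA of another type, and the aGVHD share was 0.216% with no limit on Cytl1. With a limit of 2 per 10000, Ucma-only cells were 86.2% and neither 7.38% of WT members. With a limit of 10 they were 68.3% and 26.5%, and both 0.923%. Without cells holding other RNA they were 85.0% and 9.12%. The counts of genes depended on the minimum of UMIs and on depth. With no minimum, 326 genes were higher by Col10a1, 234 by Ibsp, 140 by Ppa1, 292 in BMT and 83 over articular-type cells, and 271 were lower by Ppa1 and 174 against articular-type cells. With a minimum of 100 UMIs, 93 were lower by Ppa1, 84 higher in BMT and 30 higher over articular-type cells. After thinning the counts higher and lower were 91 and 48 by Col10a1, 58 and 122 by Ibsp, 49 and 74 by Ppa1, 69 and 26 in BMT, and 29 and 47 against articular-type cells. Of the named genes, 11 of 20 by Col10a1, 9 of 20 by Ibsp, 12 of 20 by Ppa1, 3 of 12 in BMT and 7 of 12 against articular-type cells still passed after thinning. Thinning leaves fewer UMIs, so fewer genes reach the minimum. With each gene's highest cell left out on both sides, 96 were higher by Col10a1, and 28 were higher and 177 lower in BMT. That setting removes a larger part of the smaller side by construction. The log2 ratio changed sign for Col26a1 by Ibsp after thinning (0.0623), for Kera by Ibsp without cells holding other RNA (-0.22) and without its highest cell (-1.09), and for Tnfsf9 in BMT without its highest cell (-1.11). Ptges3l by Col10a1, Col1a1 by Ibsp, Spp1 by Ppa1, Socs4 in BMT, and Mup5, Pla2g10 and Ptcra against articular-type cells no longer passed without their highest cells. No paired analysis was possible because each group has 1 library. The 15 BMT and 2 aGVHD members limit every statement on those libraries.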
